A study of Bos taurus with 106 samples.

Results

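Hepatic transcript levels of 4 Holstein cows fed a restricted amount were compared between day -14 and day -65 relative to calving, that is, between late and early dry period. The comparison rested on 16 of the 106 arrays of the series, which are 8 of its 53 cow-days, and each cow was sampled on both days. The 16 arrays were taken from the labels: restricted feeding, day -14 or day -65, cows 6877, 6952, 7045 and 7105. These cows ate about 80% of the requirement set by the NRC (a feeding standard) of a moderate-energy diet of 1.60 Mcal/kg through a dry period of 65 days. The other 4 cows of the study, numbered 6886, 7050, 7161 and 7187, had the same diet at about 120% of the requirement (ad libitum). No ages of the cows were in the labels. Replicates are separate animals, with 1 liver sample per cow and day.

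Each liver cDNA was hybridised with a reference made from tissues other than liver, once with liver in Cy5 and once with liver in Cy3. A level is therefore the log2 ratio of liver over that reference, centred on the median of each array and averaged over both dye orientations. A level of 0 means that the element lay at the median of its arrays, and a positive level means a ratio of liver over reference above that median. A log2 change of 1 is a 2-fold change. Values per cow are given in the order 6877, 6952, 7045, 7105.

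The dry period is the rest between lactations in which the cow carries the last part of pregnancy. In late pregnancy the liver of a cow meets a rising demand for glucose, which ruminants make mainly by gluconeogenesis, and takes up fatty acids released from fat tissue. The liver also makes most plasma proteins and bile acids, and steroid hormones reach high levels in the blood before calving.

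The 8 cow-days did not all follow the same pattern. On day -14 the restricted cows had the widest spread of the 14 diet-by-day groups, with a median SD over elements of 0.414 on the log2 scale, against 0.259 on day -65 and 0.180 on day -30. The change of cow 6877 had correlations of -0.175, 0.184 and -0.101 across 7577 elements with those of cows 6952, 7045 and 7105, which correlated with each other at 0.363 to 0.641. These correlations are a description, since both days of a cow enter its change and elements are not independent. Before centring, the arrays of cow 6877 on day -65 had a mean median of -1.12, against -0.29 to -0.13 in the other restricted cows on that day. The correlation of both dye orientations across elements was 0.544 to 0.816 on day -65 and 0.502 to 0.687 on day -14. The median absolute deviation of a cow-day widened from 0.399 to 0.489 on day -65 to 0.559 to 0.772 on day -14 in cows 6952, 7045 and 7105. In cow 6877 it went from 0.558 to 0.516.

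Over all 8061 tested elements, 2292 (28.4%) passed an adjusted p of 0.05, of which 1330 (16.5%) rose and 962 (11.9%) fell from day -65 to day -14. This fit of 14 groups shares 1 estimate of the spread. When each group was given its own weight, which allows for the wide spread on day -14, 629 elements (7.8%) passed, 415 higher and 214 lower. A fit on these 8 cow-days alone, with the cow as a fixed block, passed 3 of 7808 elements (0.0384%), all of them higher: SIPA1L1, MGC127133 and an element without a symbol that changed by 2.71 ± 0.28 (SE). In that paired fit 1213 elements had an unadjusted p under 0.05. Passing in both fits of all groups and under 3 other scalings in 1 direction were 593 elements (7.36%), 396 higher and 197 lower.

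Below, "rose" and "fell" refer to an adjusted p under 0.05 in the fit of 14 groups. For many genes or their lists it is said whether the calls held with group weights. Where nothing is said, a call rests on the fit of 14 groups. Of 2283 passing elements with all values, 1425 (62.42%) moved in 1 direction in 4 of 4 cows. Among all 7808 elements with values for 4 cows on both days, 2028 (26%) moved in 1 direction in 4 of 4 cows, and in 1207 (15.5%) the values of day -14 did not overlap those of day -65. In 2270 of the 2292 passing elements the sign was the same with liver in either dye. Without centring, the median of all elements rose by 0.42 and 98.27% of the calls were higher, so changes are relative to the median element, which changed by 0.04.

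The largest increases were those of an extracellular antioxidant enzyme, a group of matrix genes, chromatin genes and signalling genes. The 12 largest increases and 12 largest decreases were named among elements with 1 symbol that passed, moved in 1 direction in 4 of 4 cows and had the same sign in both dyes (829 higher and 222 lower elements). In 23 of these 24 genes the day groups did not overlap, 21 passed with group weights and 20 held under all 4 of the other settings named above. Over all elements these shares were 15.5%, 7.8% and 7.36%. The genes were picked from the same values for large changes, so these counts follow in part from the choice and are a description. In 23 of 24 the ad libitum cows had a change of the same sign, and GPX3 was the exception. Among all 2292 passing elements the sign was the same in 1881.

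SIPA1L1, which encodes a protein that switches off the small GTPase Rap, stood at -0.11, -0.37, 0.13 and 0.31 on day -65. On day -14 it stood at 3.09, 2.58, 2.11 and 3.50. The log2 change was 2.83 ± 0.36 (SE; adjusted p = 5.82e-07), and the ad libitum change was 3.21. MGC127133, a gene without an assigned function in the sources used here, went from 1.85, 2.21, 2.19 and 1.69 to 4.12, 4.42, 4.90 and 3.71, a log2 change of 2.30 ± 0.38 (SE; adjusted p = 2.60e-05). Both genes passed the paired fit as well, without overlap between the days.

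GPX3, the secreted glutathione peroxidase, had the largest mean change, and its cows differed most. Its level was 0.50, -0.13, 0.06 and 1.06 on day -65, and 6.13, 1.40, 1.71 and 4.34 on day -14. The groups did not overlap, but the SD on day -14 was 2.25 (n = 4) against 0.53 on day -65 (n = 4). The log2 change was 3.02 ± 0.93 (SE; adjusted p = 0.0144), and it did not hold with group weights (adjusted p = 0.198). In the ad libitum cows GPX3 changed by -1.79 (adjusted p = 0.270), and the difference between diets was 4.81 ± 1.37 (SE; adjusted p = 0.0578).

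Of the matrix genes, TNC encodes tenascin C, a matrix glycoprotein of tissue remodelling. It went from -2.57, -3.42, -2.77 and -2.75 to -0.58, -0.24, -1.25 and -0.65, a log2 change of 2.20 ± 0.34 (SE; adjusted p = 1.46e-05). Another element of TNC, at lower levels, rose by 1.24 ± 0.28 (SE), although not with group weights (adjusted p = 0.0703). MMP2, a gelatin-degrading protease, had a log2 change of 1.73 ± 0.33 (SE; adjusted p = 0.000201) and FBLN1, a matrix glycoprotein, of 1.71 ± 0.23 (SE; adjusted p = 1.02e-06). LAMA5, a laminin chain of basement membranes, rose by 1.76 ± 0.25 (SE; adjusted p = 2.78e-06) on the named element. Its 3 other elements rose by 0.57, 0.74 and 1.49, so the size depended on the cDNA while the direction did not. EMP1, a membrane protein of epithelia, rose from a mean of -2.31 ± 0.18 (SD, n = 4) to -0.52 ± 0.30 (SD, n = 4).

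The chromatin genes were H2B and BRD2. A histone H2B element rose from -1.58, -2.09, -1.77 and -2.07 to 0.15, -0.28, 0.35 and 0.22, a log2 change of 1.99 ± 0.23 (SE; adjusted p = 1.49e-07). BRD2, which binds acetylated histones, went from -0.81, -0.50, -0.58 and -0.58 to 1.04, 1.30, 0.97 and 1.37, a narrow range on both days. The kinase gene ITPK1, of inositol phosphate metabolism, rose by 1.98 ± 0.28 (SE). SBF1, a myotubularin-related gene, rose by 1.80 ± 0.25 (SE) with a spread of 0.75 to 2.60 on day -14.

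**Figure D1:**
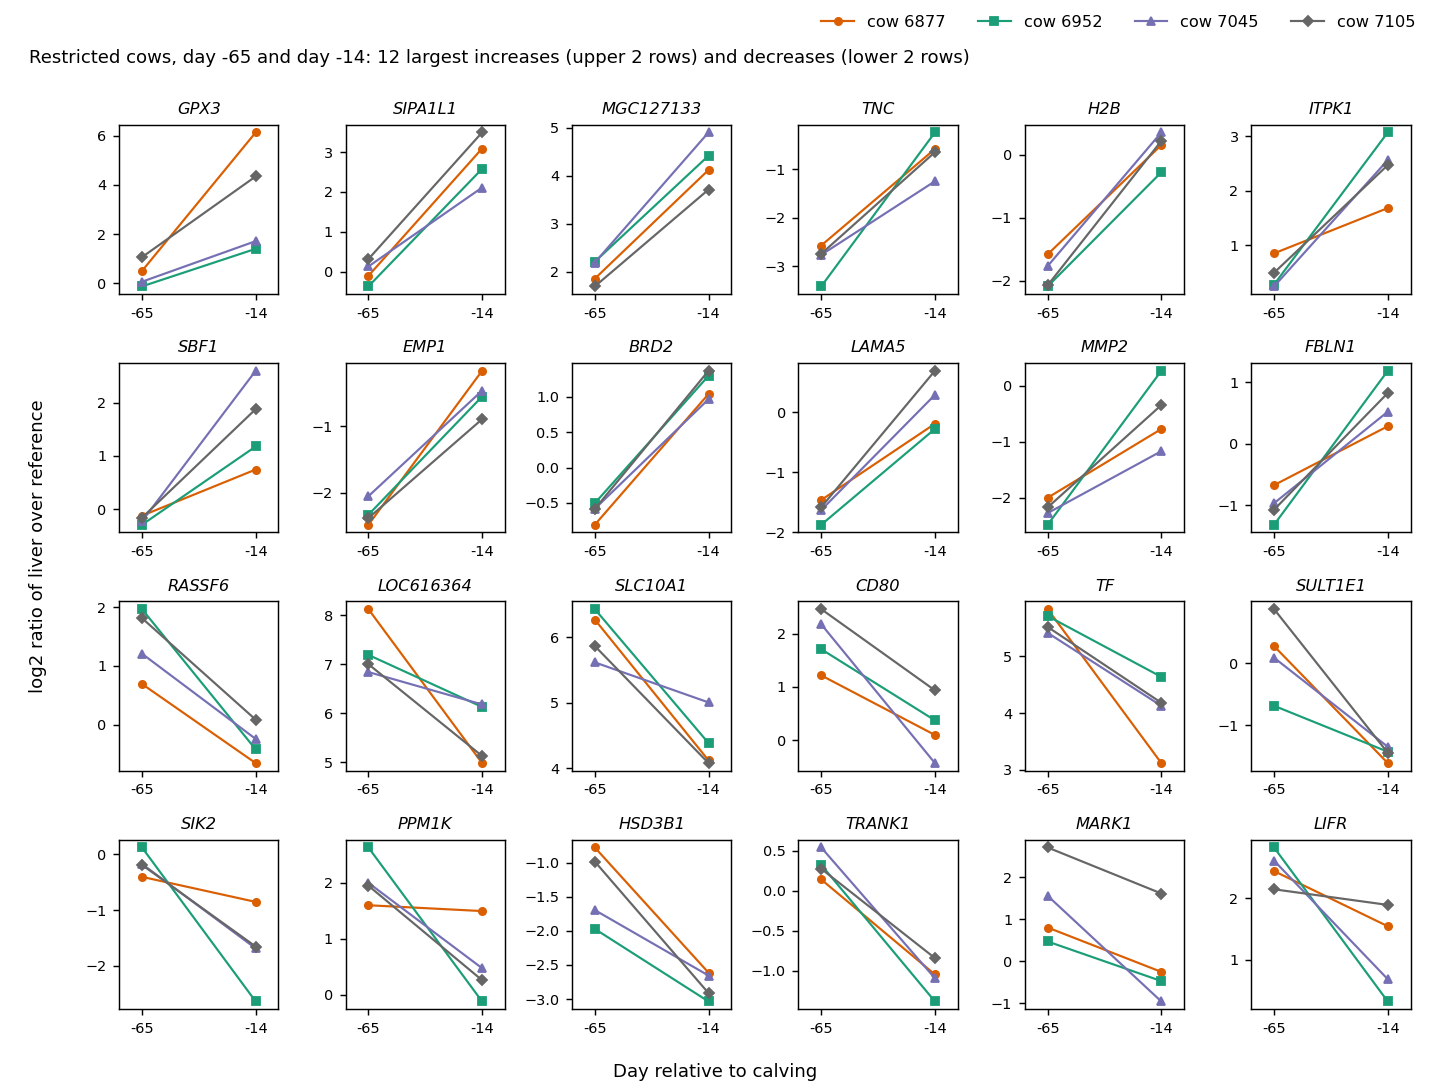
Log2 ratio of liver over reference on day -65 and day -14 for each of the 4 restricted cows, for the 12 genes with the largest increases (upper 2 rows) and the 12 with the largest decreases (lower 2 rows). Every panel has its own vertical axis and each line is 1 cow; all lines run in 1 direction per panel, and GPX3 shows the widest spread on day -14 (1.40 to 6.13).

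The largest decreases held several genes of hepatocyte transport, plasma protein and steroid metabolism. SLC10A1, the sodium-dependent transporter that takes bile acids up into hepatocytes, fell from 6.27, 6.43, 5.62 and 5.87 to 4.12, 4.38, 5.01 and 4.08. Its log2 change was -1.65 ± 0.28 (SE; adjusted p = 4.89e-05), with -1.997 in the ad libitum cows. TF, which encodes transferrin, the iron carrier of plasma, went from 5.83, 5.71, 5.42 and 5.52 to 3.12, 4.64, 4.13 and 4.18. The change was -1.60 ± 0.22 (SE; adjusted p = 2.65e-06), and cow 6877 had both the highest value on day -65 and the lowest on day -14. LOC616364, which has no assigned function in the sources used here, fell by 1.69 on the log2 scale ± 0.32 (SE) from a mean of 7.29 ± 0.58 (SD, n = 4).

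Both steroid enzymes among the 12 decreases ended in a narrow range on day -14. SULT1E1, the oestrogen sulfotransferase, went from 0.28, -0.68, 0.09 and 0.87 to -1.61, -1.42, -1.34 and -1.44 (adjusted p = 6.58e-05). HSD3B1, a 3-beta-hydroxysteroid dehydrogenase, went from -0.77, -1.97, -1.69 and -0.98 to -2.61, -3.04, -2.65 and -2.91, a log2 change of -1.45 ± 0.25 (SE; adjusted p = 5.78e-05). HSD3B1 no longer passed under scale normalization (adjusted p = 0.0654).

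The other decreases included genes of signalling. RASSF6, a Ras-association protein, had a log2 change of -1.73 ± 0.27 (SE; adjusted p = 1.65e-05) and LIFR, the receptor of leukaemia inhibitory factor, of -1.40 ± 0.29 (SE; adjusted p = 0.000378). SIK2, a salt-inducible kinase, fell from -0.41, 0.12, -0.18 and -0.19 to -0.85, -2.63, -1.69 and -1.65. PPM1K, a phosphatase of branched-chain amino acid breakdown, stood at 1.59 and 1.49 in cow 6877 and fell from 2.63 to -0.12 in cow 6952. In both genes cow 6877 moved least. TRANK1 fell by 1.41 on the log2 scale ± 0.23 (SE; adjusted p = 2.60e-05). CD80, a co-stimulatory ligand of T cells (adjusted p = 0.0913 with group weights), and MARK1, a microtubule-affinity kinase (adjusted p = 0.226), did not pass with group weights, and MARK1 was the gene whose day groups overlapped.

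Most of the 24 genes with the largest changes moved in the direction of the array median, the level 0 of the centred values. Some crossed it and ended further from it than they began, such as SIPA1L1 and BRD2. Among the 12 increases 9 genes had a mean below 0 on day -65, and among the 12 decreases 10 genes had a mean above 0. Over all elements, 898 of the 1330 that rose started below 0, and 580 of the 962 that fell started above 0. The share of all tested elements that started on each side was not counted, and the day -65 level is itself part of the change. On the other side, 431 rose with both means above 0 and 382 fell with both means below 0. Among genes that moved away from the array median, C1RL, a serine protease related to complement C1r, rose from 2.08, 2.35, 1.90 and 2.03 to 3.64, 3.75, 3.83 and 3.83 (log2 change 1.68 ± 0.20, SE; adjusted p = 1.49e-07). This was among the narrowest pairs of groups. COASY, of coenzyme A synthesis, rose by 1.54 ± 0.27 (SE; adjusted p = 5.63e-05). MGP, matrix Gla protein, changed by 1.56 ± 0.52 (SE; adjusted p = 0.0216), with 4.31 in cow 6952 and 2.10 to 2.76 in the others on day -14, and did not pass with group weights (adjusted p = 0.259).

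Genes that lay below the array median and fell further included HDAC2, a histone deacetylase, with -0.67, -0.07, -0.46 and -0.38 on day -65 and -1.46, -2.57, -1.43 and -1.67 on day -14 (adjusted p = 1.07e-05). SPP1, osteopontin, fell by 1.26 on the log2 scale ± 0.26 (SE; adjusted p = 0.000364), from a range of -0.99 to -0.66 to -1.04, -3.19, -2.0 and -1.96. GPALPP1 had a log2 change of -1.29 ± 0.25 (SE). CA2, a carbonic anhydrase, had one of -1.28 ± 0.30 (SE), which did not hold with group weights (adjusted p = 0.106). Cow 6877 was the highest of the 4 in SPP1 and GPALPP1 on day -14.

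Gene lists were described by counts and by the median change of their measured members, each gene by 1 element, beside the median of 0.04 over all tested elements. Over all tested elements 16.5% rose and 11.9% fell, which is the background for each count of a list in the fit of 14 groups. With group weights that background was 415 higher and 214 lower of 8061 elements. Cytosolic ribosomal proteins, the structural parts of the ribosome, rose most broadly. Of 80 genes 45 were measured, 39 rose, none fell and 6 did not pass, against 16.5% of all elements that rose. The median change was 0.86, and 38 of 45 moved up in 4 of 4 cows. The median per cow was 0.76, 1.00, 0.40 and 1.41. RPL35 went from -1.41, -1.61, -1.14 and -1.89 to -0.03, 0.26, -0.34 and 0.28 (log2 change 1.56 ± 0.18, SE; adjusted p = 1.49e-07), and its other element rose by 0.91. RPS27 had a log2 change of 1.65 ± 0.21 (SE; adjusted p = 8.64e-07), RPS18 of 1.57 ± 0.25 (SE; adjusted p = 2.16e-05) and RPS29 of 1.44 ± 0.20 (SE; adjusted p = 2.65e-06). RPL5 at -0.91 and RPS24 at -0.35 were the 2 members with a negative change, and neither passed. With group weights 21 of 45 rose (all elements: 415 of 8061), and without cow 7105 there were 23 (702 of 8021). With liver in Cy3 alone 23 rose and 1 fell (all elements: 1063 and 1319 of 8134). A ribosomal protein cDNA may also hybridise to pseudogene or paralogue transcripts.

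Genes of endoplasmic reticulum folding and translocation, through which secreted proteins enter the secretory pathway, changed more in cow 6877 than in the others. Of 20 measured genes 7 rose and none fell (all elements: 16.5% and 11.9%), with a median change of 0.39. The median was 1.43 in cow 6877 and 0.07, 0.14 and -0.05 in the others, and without cow 6877 it was -0.05. The genes of the translocon-associated complex, which assists entry into the endoplasmic reticulum, rose in all 4 cows on 3 of its 4 measured elements. SSR4 went from -1.15, -1.42, -1.52 and -1.71 to 0.07, -0.11, -0.81 and 0.05, a log2 change of 1.25 ± 0.24 (SE; adjusted p = 0.000149). SSR3 had a log2 change of 1.11 ± 0.21 (SE; adjusted p = 0.000165) and SSR2 of 1.03 ± 0.20 (SE; adjusted p = 0.000193). P4HB, a disulfide isomerase, rose by 1.01 ± 0.23 (SE; adjusted p = 0.00102). All 4 passed with group weights, and each moved up in 4 of 4 cows. HYOU1, a chaperone, changed by 0.50 (adjusted p = 0.279) on the listed element, and another of its elements rose by 1.40 and held with group weights.

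Of 21 measured extracellular matrix genes 9 rose, none fell and 12 did not pass (all elements: 16.5% rose and 11.9% fell). The median change was 0.57, with medians per cow of 0.58, 0.76, 0.55 and 0.74. Beside TNC, MMP2 and FBLN1, COL6A1, a chain of type VI collagen, rose by 1.27 ± 0.27 (SE; adjusted p = 0.000496). COL3A1 changed by 1.67 (adjusted p = 0.0715) and COL1A2 by 0.06 (adjusted p = 0.957), so the fibrillar collagens did not pass. With group weights 4 of 21 rose (all elements: 415 of 8061). Under the 3 other scalings 7 to 11 rose (all elements: 1094 to 1275 of 8061). Without cow 7105 there were 5 (all elements: 702 of 8021). Stellate cells and fibroblasts are the main makers of matrix in liver. Of their 6 measured markers (of 14) 3 rose: TAGLN by 0.78, THY1 by 0.43 and VIM by 1.15, none of them with group weights. DCN changed by 0.71 (adjusted p = 0.136), COL1A2 by 0.06 and DES by -0.002. Their mean level was -2.10 to -1.89 over cows on day -65 and -1.75 to -0.90 on day -14. The part of these cells in the matrix result was not tested, and in tissue RNA more cells of a type and more RNA per cell cannot be told apart.

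The TGF-beta family controls matrix formation and growth. Of 15 measured modulators of it 5 rose, none fell and 10 did not pass, against 16.5% of all elements that rose and 11.9% that fell, with a median change of 0.39. CD109, a co-receptor that dampens TGF-beta signals, went from -2.08, -2.52, -1.92 and -1.34 to -1.17, -0.10, -0.02 and -0.41 (log2 change 1.54 ± 0.26, SE; adjusted p = 3.29e-05). ID1, a target of BMP signals, rose by 1.46 ± 0.30 (SE; adjusted p = 0.000359). FSTL3, a binder of activin, rose by 1.56 ± 0.36 (SE; adjusted p = 0.00147). These 3 passed with group weights. The receptors TGFBR1 (0.44), TGFBR2 (-0.09) and TGFBR3 (-0.57) did not pass.

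**Figure D2:**
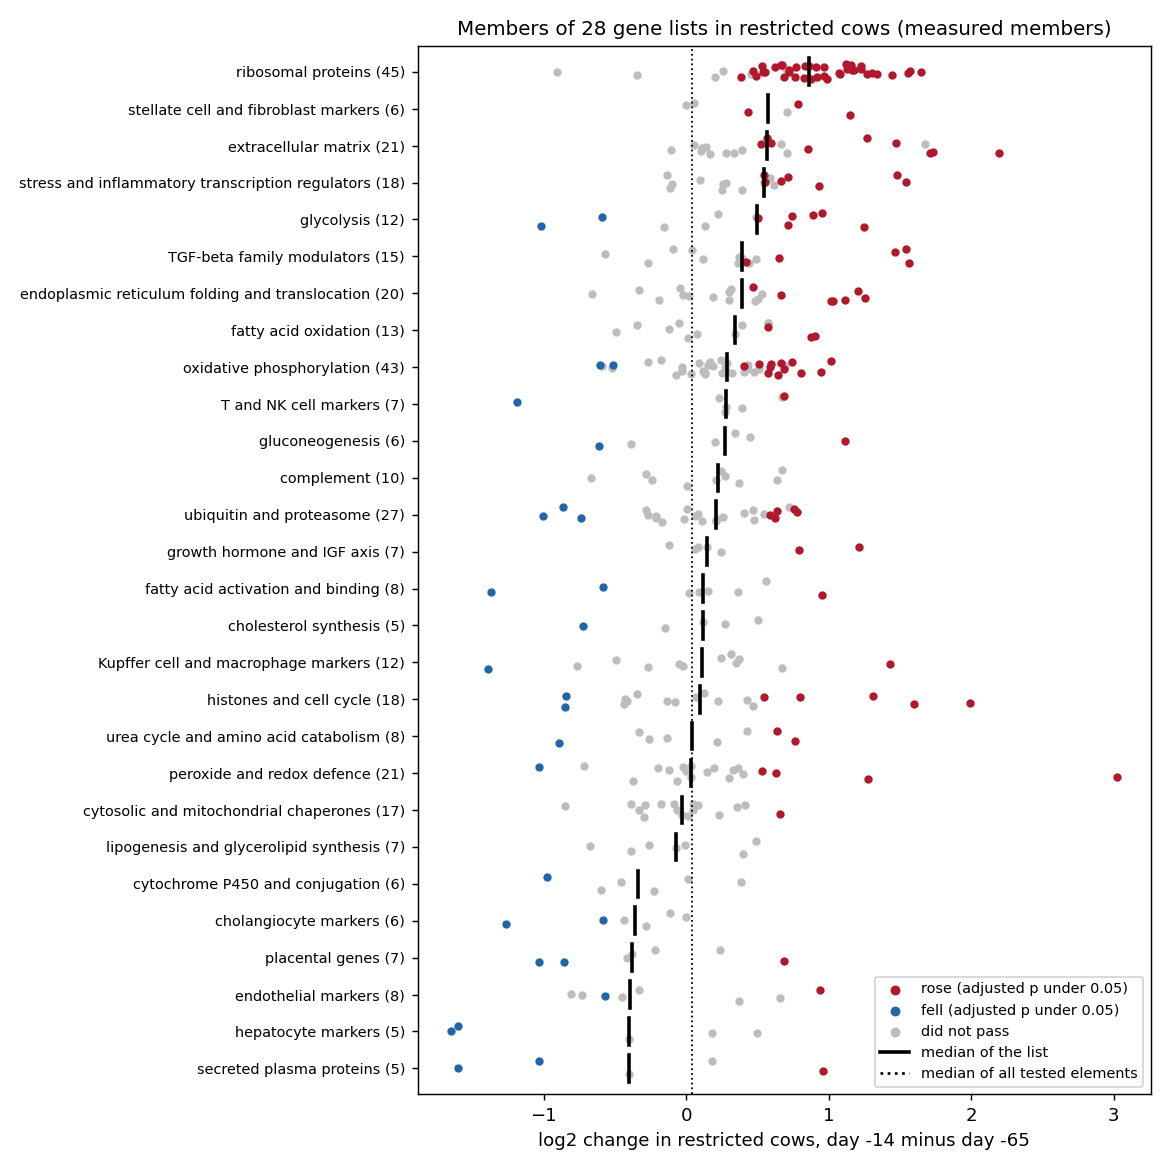
Log2 change from day -65 to day -14 in restricted cows for the measured members of 28 gene lists; each point is a gene, black bars are list medians and the dotted line is the median of all tested elements (0.04). Ribosomal proteins have the highest median (0.86), and hepatocyte markers and secreted plasma proteins have the lowest (-0.40). The latter lists share TF, RBP4 and APOA1, and both medians are the value of RBP4, which did not pass. Endothelial markers (-0.39) and placental genes (-0.38) lie close to them.

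Of the liver markers that check the tissue, hepatocyte markers lay far above the array median. Of 28 marker genes 5 were measured (TF, SLC10A1, ASGR2, RBP4 and APOA1), with a mean level of 4.34 to 4.93 on day -65 and 3.71 to 4.10 on day -14. TF and SLC10A1 fell and the other 3 did not pass: ASGR2 changed by 0.49, RBP4 by -0.40 and APOA1 by 0.18. Under scale normalization, which divides each array by its width, 3 fell (all elements: 668 of 8061) and the list median was -2.11. Among secreted plasma proteins, SELENOP, the selenium carrier, went from 4.59, 5.07, 5.11 and 4.75 to 4.15, 3.85, 4.52 and 2.85 (log2 change -1.04 ± 0.24, SE; adjusted p = 0.00173). CP, ceruloplasmin, rose by 0.96 ± 0.36 (SE; adjusted p = 0.0423), did not pass with group weights (adjusted p = 0.208) and had the opposite sign under scale normalization (-0.79). Of the complement list 0 of 10 measured genes passed in either direction (all elements: 16.5% rose and 11.9% fell), with a median change of 0.22. Under scale normalization 6 of 10 fell (all elements: 668 of 8061).

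In glucose metabolism PC and ALDOA rose and held with group weights, ALDOA on 1 of its elements. PC, pyruvate carboxylase, the enzyme that feeds pyruvate carbon into gluconeogenesis, went from -0.66, -0.48, -0.64 and -0.20 to 0.74, 0.98, 0.35 and 0.41. Its log2 change was 1.11 ± 0.19 (SE; adjusted p = 4.89e-05), and it held with group weights (adjusted p = 0.0135). PDHA1, a subunit of pyruvate dehydrogenase, which directs pyruvate to oxidation instead, changed by -0.52 (adjusted p = 0.0887) at element 3576 and by -0.06 (adjusted p = 0.83) at element 4885. In the gluconeogenesis list 1 of 6 measured genes rose and 1 fell. The latter was MDH2 at -0.61, which did not pass with group weights, while another element of MDH2 rose by 0.81. Of 12 glycolysis genes 6 rose and 2 fell (all elements: 16.5% and 11.9%), with a median change of 0.50. PFKP, PGAM1, GAPDH, TPI1, ALDOA and ENO1 rose, ALDOA most at 1.25, and none of these 6 listed elements passed with group weights. Another element of ALDOA, which encodes aldolase, rose by 1.56 ± 0.30 (SE; adjusted p = 0.000201) and passed with group weights and under the 3 other scalings. HK1 fell by 1.02 on the log2 scale ± 0.21 (SE; adjusted p = 0.000378) on the listed element, and another of its elements rose by 0.66. PGK1 had a log2 change of -0.59 ± 0.14 (SE; adjusted p = 0.00211; 0.054 with group weights).

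The lists of fat metabolism had calls in both directions. In fatty acid oxidation 3 of 13 measured genes rose and none fell, with a median change of 0.34, where 16.5% of all elements rose and 11.9% fell. ETFB, which passes electrons from acyl-CoA dehydrogenases, went from 1.44, 1.22, 1.05 and 0.85 to 1.96, 2.08, 1.71 and 2.32 (log2 change 0.88 ± 0.21, SE; adjusted p = 0.00201; 0.0503 with group weights). ACAA1, a peroxisomal thiolase, and ACADVL, a long-chain dehydrogenase, rose by 0.90 and 0.57, and both had the opposite sign under scale normalization. CPT1A, the entry step of mitochondrial oxidation, changed by 0.57 (adjusted p = 0.113) and 0.35 (adjusted p = 0.258) on its 2 elements. The list median was -0.53 under scale normalization. In fatty acid activation and binding 1 of 8 rose (ACSL5 by 0.95) and 2 fell (SLC27A2 by 1.37 and FABP5 by 0.58, on the log2 scale). ACSL1, which activates long-chain fatty acids, changed by 0.15 (adjusted p = 0.786). In lipogenesis and glycerolipid synthesis 0 of 7 passed, and SREBF1, a regulator of lipogenesis, changed by 0.40 (adjusted p = 0.645) with a value missing in cow 6952 on day -14. ACAT2 was the 1 of 5 cholesterol synthesis genes that fell, by 0.72 on the log2 scale. None of the listed elements of fat and cholesterol metabolism passed with group weights. FABP5, a fatty acid binding protein, had 2 further elements that did, with log2 changes of -1.03 ± 0.29 and -0.90 ± 0.19 (SE). GHR and IGF1 had no tested element.

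Nitrogen metabolism had changes in both directions. ASL, argininosuccinate lyase of the urea cycle, went from -0.37, -0.18, -0.42 and -0.16 to 0.31, 0.78, 0.34 and 0.48 (log2 change 0.76 ± 0.13, SE; adjusted p = 5.78e-05). OAT, ornithine aminotransferase, went from -0.62, -0.02, -0.63 and -0.49 to -1.20, -1.68, -1.06 and -1.41 (log2 change -0.90 ± 0.17, SE; adjusted p = 0.000126). The groups did not overlap in either gene, and both held with group weights. ASS1, the enzyme before ASL, changed by -0.33 (adjusted p = 0.285), and PRODH rose by 0.64, although not with group weights (adjusted p = 0.235).

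Stress and inflammatory transcription regulators rose in 7 of 18 measured genes, and none fell (all elements: 16.5% and 11.9%). The median change was 0.55. FOSL2, an AP-1 subunit, went from -0.20, -1.09, -0.56 and -0.67 to 0.59, 0.78, 0.51 and 1.504 (log2 change 1.48 ± 0.20, SE; adjusted p = 1.39e-06). Another element of FOSL2 fell by 0.78 on the log2 scale. EGR1, an immediate early gene, rose by 1.54 ± 0.36 (SE; adjusted p = 0.0014) and ATF4, of the amino acid response, by 0.93 ± 0.23 (SE; adjusted p = 0.00272). RELA, KLF4, STAT3 and CEBPD rose by 0.54 to 0.71, and of the 18 listed elements that of FOSL2 held with group weights. Another element of RELA, an NF-kappaB subunit, rose by 0.88 ± 0.15 (SE; adjusted p = 4.95e-05) and held as well. Among IGF-binding proteins, which carry insulin-like growth factors in plasma, IGFBP3 rose by 1.21 ± 0.29 (SE; adjusted p = 0.00226) and IGFBP4 by 0.79 ± 0.21 (SE; adjusted p = 0.0047). Neither held with group weights, and IGFBP4 had the opposite sign under scale normalization. The other 5 measured genes of that axis did not pass.

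In mitochondrial and protein-turnover genes, 12 of 43 oxidative phosphorylation subunits rose and 2 fell (UQCRH and NDUFS3). Over all elements 16.5% rose and 11.9% fell. The median change of the list was 0.285, and with group weights 2 subunits rose and none fell (all elements: 415 and 214 of 8061). UQCR11, of complex III, rose by 0.94 ± 0.20 (SE; adjusted p = 0.000415) and NDUFV1, of complex I, by 1.01 ± 0.24 (SE; adjusted p = 0.00177). The counts of this list depended on the dye, as did those of all elements. With liver in Cy5 20 rose and none fell (all elements: 1102 and 294 of 8142). With liver in Cy3 2 rose and 5 fell (all elements: 1063 and 1319 of 8134). UQCRC2, of complex III, changed by -0.03 on the listed element, and another of its elements fell by 0.80 on the log2 scale and held with group weights. Of 27 ubiquitin and proteasome genes 5 rose and 3 fell (all elements: 16.5% and 11.9%). PSMC1, a proteasome ATPase, rose by 0.75 ± 0.13 (SE; adjusted p = 6.43e-05) and UBA1, the ubiquitin-activating enzyme, by 0.78 ± 0.17 (SE; adjusted p = 0.000582). Of 21 peroxide and redox genes 4 rose (GPX3, PRDX1, PRDX4 and PRDX5), and SELENOP fell (all elements: 16.5% and 11.9%). With group weights 1 of the 21 rose and 1 fell. SOD2, the mitochondrial superoxide dismutase, changed by 0.01 on the listed element, and another of its elements fell by 1.05 on the log2 scale and held with group weights. PRDX4, the peroxiredoxin of the endoplasmic reticulum, rose by 1.27 ± 0.22 (SE; adjusted p = 5.40e-05), with 1.08 in cow 6877 and -0.55 to -0.10 in the others on day -14. Of 17 chaperones 1 rose (FKBP4 by 0.66; adjusted p = 0.0936 with group weights). Among 18 histone and cell cycle genes 5 rose and 2 fell (all elements: 16.5% and 11.9%), and with group weights 2 rose and 2 fell. H1-3, a linker histone, rose by 1.60 ± 0.28 (SE; adjusted p = 5.75e-05) and CDK2 fell by 0.84 on the log2 scale.

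**Figure D3:**
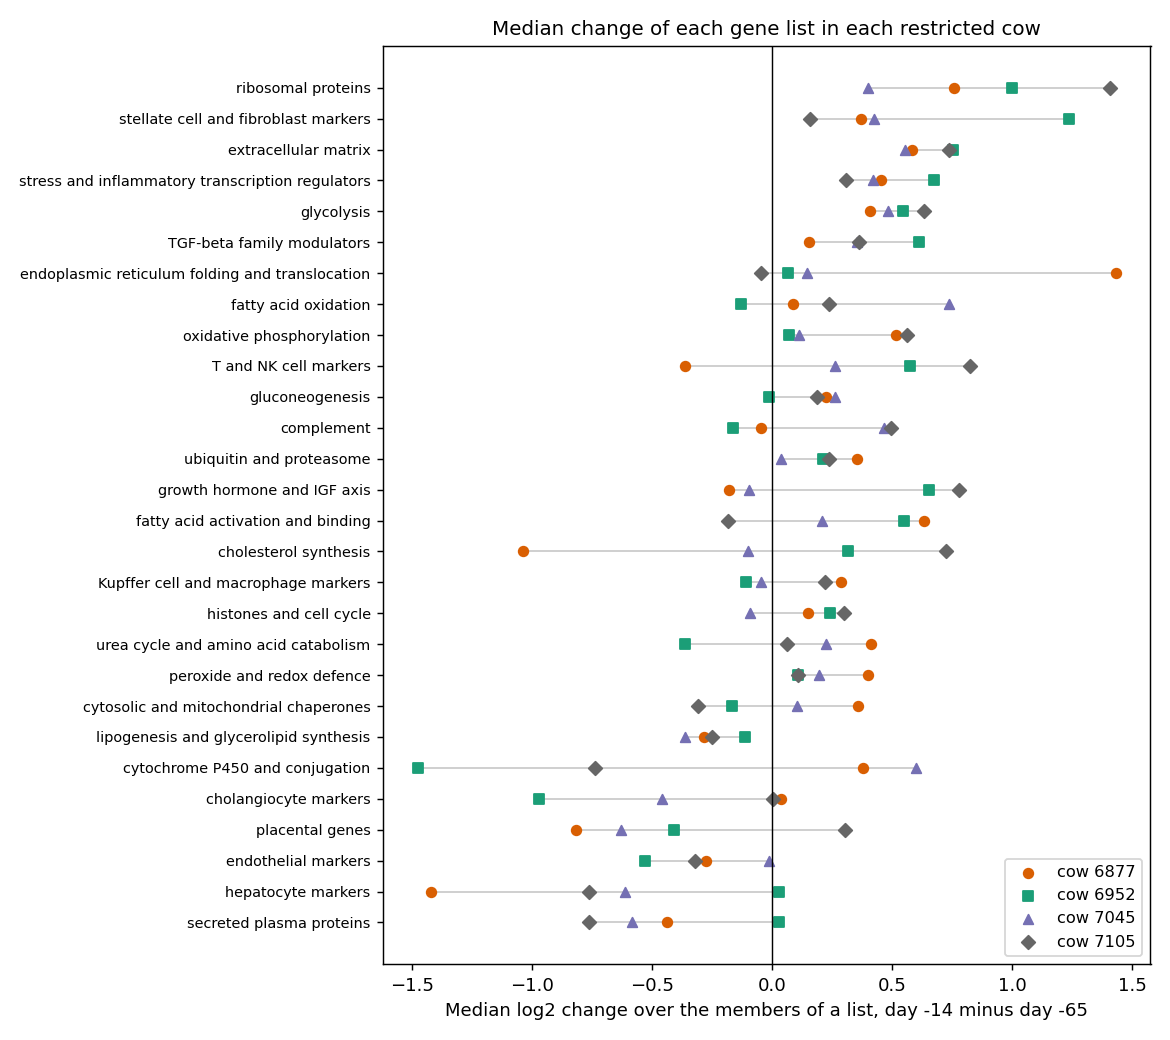
Median log2 change over the members of each gene list from day -65 to day -14, with 1 symbol for each of the 4 restricted cows. The 4 cows lie close together for extracellular matrix (0.55 to 0.76) and far apart for endoplasmic reticulum genes, where cow 6877 is at 1.43 and the others at -0.05 to 0.14.

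Markers of other liver cells had few calls. Over all elements 16.5% rose and 11.9% fell, and the counts of these lists were not tested against those shares. Of 12 measured Kupffer cell and macrophage markers (of 20) AIF1 rose and CD5L fell. AIF1, of macrophage activation, went from 1.11, 1.30, 1.51 and 1.00 to 2.84, 2.77, 2.57 and 2.46 (adjusted p = 0.000127), and CD5L from 6.02, 7.11, 5.94 and 6.26 to 5.44, 4.95, 5.22 and 4.15 (adjusted p = 0.00269). The groups did not overlap in either gene, and with group weights AIF1 passed and CD5L did not (adjusted p = 0.0947). Under scale normalization AIF1 did not pass (0.81, adjusted p = 0.0653). There 0 of the 12 listed elements rose and 3 fell (all elements: 1275 and 668 of 8061). Of 8 endothelial markers PECAM1 rose and ERG fell, and another element of PECAM1 fell by 0.40 on the log2 scale. Of 6 cholangiocyte markers SPP1 and EPCAM fell, while KRT19 changed by 0.001. Of 7 T and NK cell markers CD8A rose by 0.68 and GNLY fell by 1.19 on the log2 scale. S100A12 rose by 1.04, 1 of 2 measured neutrophil markers, and 0 of 2 measured B and plasma cell markers passed. Among the listed elements of these markers, AIF1 and SPP1 held with group weights. Another element of KDR, a VEGF receptor of endothelium, fell by 1.56 on the log2 scale ± 0.32 (SE; adjusted p = 0.000445) and held too, while its listed element changed by -0.45 (adjusted p = 0.112). The element that fell did not meet the rule of 4 of 4 cows and both dyes used for the 12 largest decreases. Erythrocyte and adipocyte markers had no tested element. Among 7 placental genes, which serve as transcripts foreign to liver, PRP6 rose by 0.68 and CSH2 and PRP1 fell by 1.04 and 0.86 on the log2 scale. The median of that list was -0.38, and with group weights CSH2 was the 1 that passed, so calls of this size also occurred in genes not expected in liver.

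The change in restricted cows was set against that between the ad libitum group means, with 3 cows on day -65 and 4 on day -14. Cow 7050 had no sample on day -65 and enters the mean of day -14. In ad libitum cows 879 elements (10.9%) passed, against 28.4% in restricted cows. On both feeding levels 412 passed in the same direction, which is 18.0% of the restricted list and 46.9% of the ad libitum list. A further 4 passed in opposite directions. Of the 2292 elements that passed in restricted cows, 1881 had an ad libitum change of the same sign, passing or not. The share of same signs over all tested elements was not counted. The difference between the changes passed in 105 of 8061 elements (1.3%), 90 with a higher and 15 with a lower change in restricted cows. This count was not stable: it was 0 with group weights (1011 elements with an unadjusted p under 0.05), 0 without cow 6886, 1 without cow 7050, 4 without cow 7105 and 1084 without cow 6877. The differences below are therefore those of the fit of 14 groups and depend on the weights and on the cows included. Of the 105, 90 also passed with array weights and 0 with group weights.

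PC had 1 of these differences. Its ad libitum change was -0.27, and the difference of 1.38 ± 0.28 (SE) had an adjusted p of 0.0106. On day -65 the restricted mean was -0.50 ± 0.21 (SD, n = 4) and the ad libitum mean 0.28 ± 0.20 (SD, n = 3), while on day -14 the means were 0.62 ± 0.30 (SD, n = 4) and 0.02 ± 0.29 (SD, n = 4). The means thus lay apart on both days, in opposite order. A dry period of 65 days places day -65 at its start, so the gap on that day cannot be told apart from a difference between the cows. On day -30 they were -0.47 in restricted and -0.58 in ad libitum cows. Over the 105 elements the median gap between diets in the direction of the difference was 0.35 on day -65 and 0.77 on day -14. The largest differences were those of URAD, of uric acid breakdown, with a change of 0.60 in restricted and -1.95 in ad libitum cows, and of the complement gene C2 with 0.28 and -1.70. MAP1B, a microtubule protein, had the largest in the other direction, with 0.19 and 1.97. In these 3 genes the change in ad libitum cows passed and that in restricted cows did not. Of the 105 elements 77 passed in restricted cows and 31 in ad libitum cows.

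**Figure D4:**
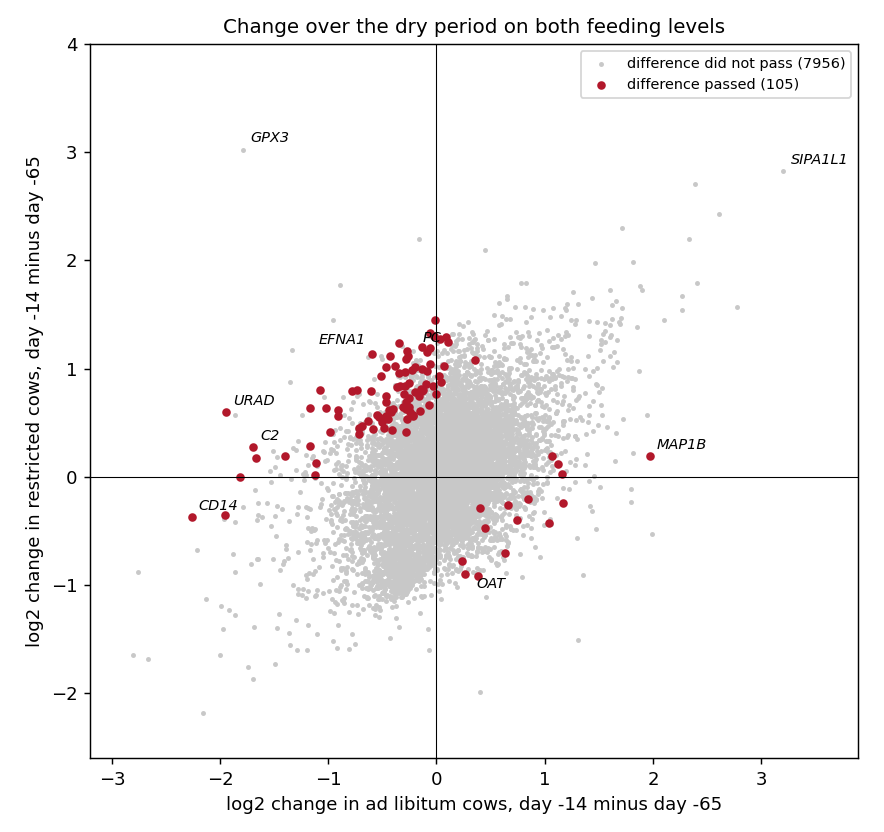
Log2 change from day -65 to day -14 in restricted cows (vertical) against ad libitum cows (horizontal) for 8061 elements; red points are the 105 elements whose difference passed. SIPA1L1 lies high on both axes (2.83 and 3.21), and GPX3 lies high in restricted cows (3.02) and low in ad libitum cows (-1.79) without passing.

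The level on day -30 lay nearer to that of day -65 than to that of day -14 in 22 of the 24 genes with the largest changes. TNC had restricted means of -2.88, -2.50, -0.68, -0.56, -1.58, -3.10 and -2.67 over days -65, -30, -14, 1, 14, 28 and 49. SIPA1L1 followed the same course at -0.01, 0.66, 2.82, 2.61, 2.15, 0.67 and 0.19. SLC10A1 ran the opposite way, at 6.05, 5.65, 4.40, 4.07, 5.07, 6.22 and 5.75. In these 3 genes the shift appeared between day -30 and day -14, lasted over calving, and on day 28 the mean was nearer to that of day -65 than to that of day -14. RPL35 had an intermediate mean on day -30 and stayed above that of day -65 on every later day, at -1.51, -0.78, 0.04, -0.14, -0.39, -0.68 and -0.81. HSD3B1 was lowest on day -14, at -2.80, and stood at -1.60 on day 49. Since the genes were chosen for their change between 2 of these days, these courses are a description.

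**Figure D5:**
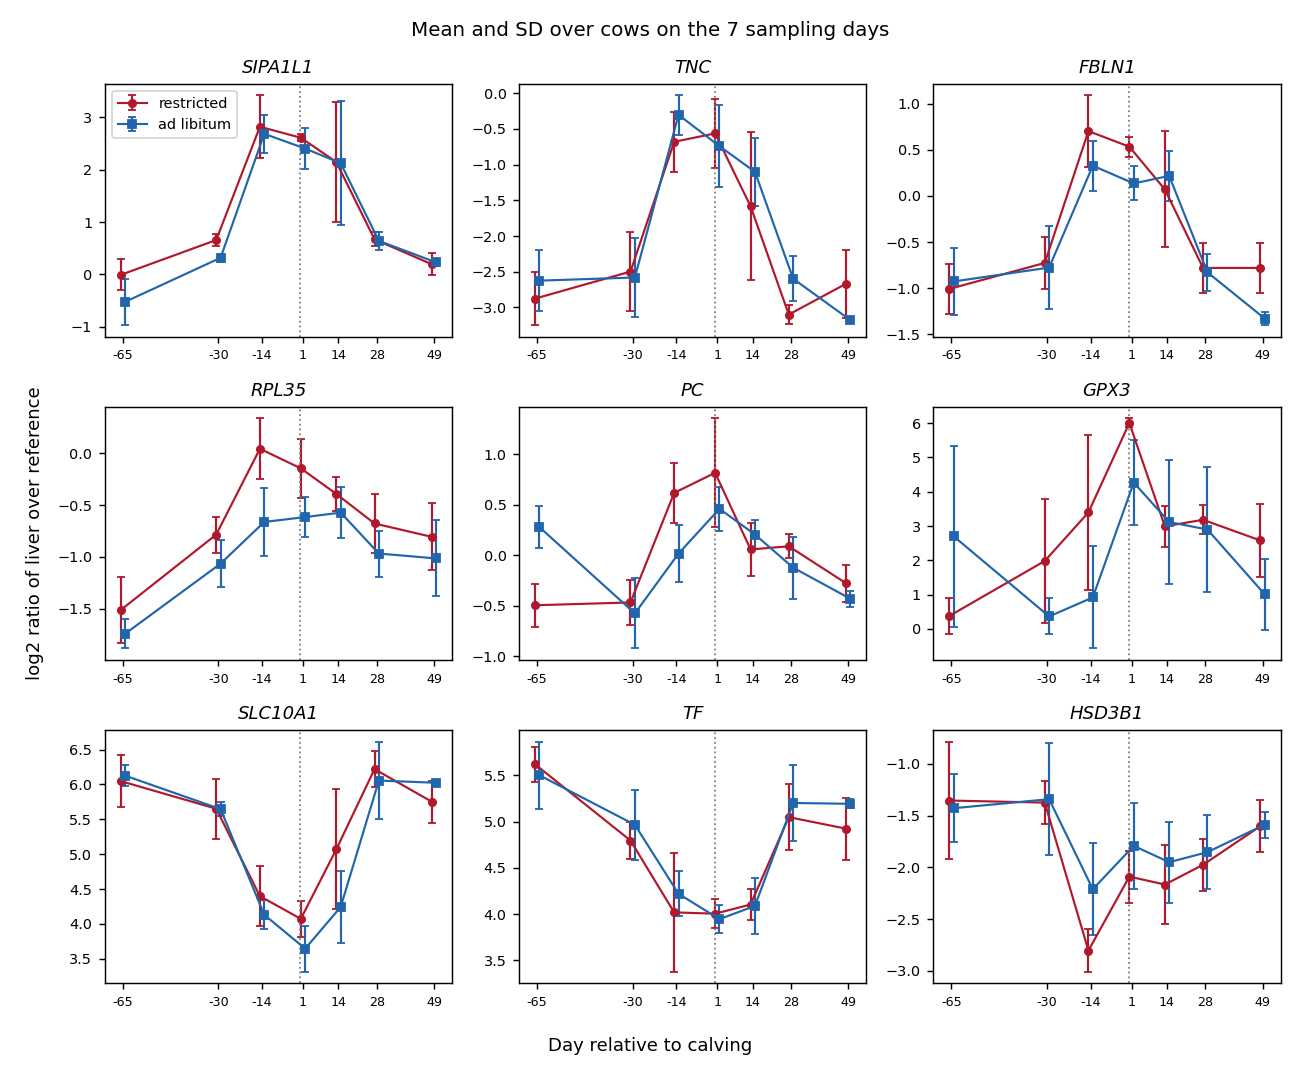
Mean log2 ratio of liver over reference with SD over cows on the 7 sampling days for 9 genes; red circles are restricted cows (n = 4) and blue squares ad libitum cows (n = 4, with 3 on day -65 and 2 on day 49), shifted slightly sideways, and the dotted line marks calving. TNC, SIPA1L1 and FBLN1 are high and SLC10A1 and TF are low from day -14 to day 14 on both feeding levels.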

How the data were processed

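Liver RNA of 8 cows was measured on 2-colour spotted cDNA arrays, 106 arrays for 53 cow-days, and 16 arrays enter the main comparison. Per the labels, arrays were scanned on a dual-laser Scanarray instrument and quantified with GenePix 4.0. The authors deposited log2 ratios of Cy5 over Cy3 for each of 2 spots per element. Any normalization before deposit is not given in the sources used here. Medians of single arrays ran from -1.69 to 1.80.

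The sign was turned where liver was in Cy3, each array was centred on its median, spots were averaged (correlation between them 0.900), and the dye pair of a cow-day was averaged to 1 replicate. The dye was taken from the titles; for 2 arrays the source text names the other dye, 1 of them in the comparison. Ratios carry no read depth, so the number of cows limits the precision. Of 8208 elements 8061 were tested (at least 2 cows in each group).

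In R 4.3.3, limma 3.58.1 (and statmod 1.5.0) fitted 14 diet-by-day means with the cow as a random block (correlation 0.0176), with Benjamini-Hochberg adjustment over all tested elements at 0.05, two-sided. All SEs and adjusted p-values are from this fit unless another is named. The pairing comes from the labels: same-numbered samples are the same animal. The script was tested on simulated data. These gave each element the same spread in all groups and held no effect of the cow. The test therefore does not cover the wider spread of restricted cows on day -14. Alternatives were other scalings, weights, blocks, single dyes and each cow left out.

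Symbols come from the platform annotation updated through RefSeq (ARS-UCD2.0): 5598 elements had 1 symbol, 95 several and 2515 none. Where a gene had several tested elements, the list used the one with the highest mean level over all cow-days; further elements of such genes were named after their values were seen. Named were the 12 largest increases and decreases among passing elements that moved in 1 direction in 4 of 4 cows and in both dyes, 6 in each direction that moved away from the array median, up to 4 per list, 8 per direction of the diet difference, and genes followed by name. The members and lists were chosen with earlier results of these data known. Promoter and cDNA sequences were not used here.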

Additional observations from a re-analysis of the deposited data

Results flagged for a closer look

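In 8 of 303 groups of 4 cows examined, 1 cow lay far from the other 3 by Dixon's criterion, which chance meets in about 1 in 20 groups. On day -14 cow 6877 stood apart in LCP1 (-1.4), AGPAT1 (0.02) and AGPAT2 (0.2), and cow 7105 in COL6A1 (-0.13). On day -65 cow 6877 stood apart in UQCR11 (0.22), H1-2 (-1.11) and PSMB4 (-0.1), and cow 6952 in POR (0.92). Of the 8 values 6 belonged to cow 6877.

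The change over the dry period differed between feeding levels in 105 elements by the interaction term in limma. Among the named genes the restricted change was higher than the ad libitum change in URAD (2.54), C2 (1.97), CD14 (1.89), FOLR1 (1.87), C4A (1.8), EFNA1 (1.72), SGPL1 (1.66) and UNC13D (1.6), each on the log2 scale. It was lower in MAP1B (-1.78), DCTN6 (-1.47), TFAP2A (-1.33), PCLAF (-1.29), OAT (-1.16), BOD1L1 (-1.14), LCP1 (-1.13) and AKAP12 (-1.06). None of these passed with group weights, where 0 elements did.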

How the results depend on the processing

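The number of calls in the main comparison, 2292, moved by less than 1.5 times under Cy3 alone (2382, of which 1693 were among the 2292), no centring (1559, 1286 shared), scale (1943, 1466 shared), slope (1792, 1762 shared) and quantile (1860, 1630 shared) normalization and array weights (1889, 1670 shared). It moved by more with liver in Cy5 alone (1396), with restricted cows alone over all days (1356), with group weights (629), with the cow as a fixed replicate block (3) and with that replicate block without cow 6877 (0, with 2244 at an unadjusted p under 0.05). Leaving out 1 cow gave 1007 (without cow 7105) to 2875 (without cow 6877), with 1197 without cow 6952 and 1483 without cow 7045. The share of higher calls was 58.03% and became 78.94% with Cy5, 44.63% with Cy3, 98.27% without centring and 73.6% with restricted cows alone. Group weights, the fixed block without cow 6877 and the fit of restricted cows alone were chosen after seeing the data.

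The 105 elements that differed between diets became 258 with array weights, 295 with Cy5, 12 with slope and 11 with quantile normalization and 7 with the agreement of orientations as a covariate. They became 0 with Cy3, group weights, no centring, scale normalization and the replicate block with and without cow 6877 (unadjusted p under 0.05 in limma: 871, 1011, 356, 1029, 651 and 1674). Leaving out 1 cow gave 0 (without cow 6886) to 1084 (without cow 6877), with 1 without cow 7050, 4 without cow 7105, 44 without cow 7187, 48 without cow 7045 and 169 without cow 6952.

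Under scale normalization the sign turned for the diet difference of UNC13D (-0.31) and for the changes of PCLAF (0.088), ACAA1 (-0.19), ACADVL (-0.15), CP (-0.79) and IGFBP4 (-0.26). The causes were not tested. A p that misses the threshold in 4 cows does not show that a gene did not change.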

Other observations

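Of 933 genes with at least 2 tested elements, 144 had 2 or more that passed. In 110 of them all passing elements moved in 1 direction, and in 34 they moved in opposite directions, FOSL2, HK1, MDH2, PECAM1 and UBE2L3 among them. A gene's call in this comparison is therefore that of the cDNA measured.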
